A study of Rattus norvegicus with 6 samples.

Results

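The genes of this report encode feedback inhibitors of the ERK pathway: the dual-specificity phosphatases Dusp1, Dusp4, Dusp5 and Dusp6, the Sprouty proteins Spry1, Spry2 and Spry4, and the Sprouty-related Spred1 and Spred2. They were chosen by name, with earlier results of these data known. They are 9 of the 16499 gene symbols of the deposited table, and each had 1 transcript row. The RNA came from cultured synovial fibroblasts (the cells that form the joint lining and adhere to plastic) of 2 female Wistar rats with collagen-induced arthritis (CIA). The cells were taken at disease onset, before any therapy, and expanded in medium with fetal bovine serum. They were then kept for days in 1 of 3 serum conditions, so the levels do not describe the first hours after the change of serum. In the FBS condition the medium held fetal bovine serum. In MS- it held serum of untreated rats, and in MS+ serum of rats after 18 days of mechanical stimulation by needle, which the labels call acupuncture. Cells of both rats went into each condition, which gave 6 libraries of poly(A)-selected RNA, 2 per condition. Replicate 1 is rat 1 and replicate 2 is rat 2 throughout, so that the replicate is the donor of the cells. The number of animals that gave each serum was not stated in the labels, and the MS- samples carry a contradiction, since their description speaks of healthy rats while title and disease state give arthritis. In the main text of the study the MS- serum was drawn from arthritic animals before any therapy, while its sampling summary lists serum of stimulated and of healthy animals. The age of the rats was not given in the sources used here.

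In the coordinates of the files (rat build rn4, whole transcripts), Dusp1 (NM_053769) lies on the plus strand at chr10:16942913-16945696, Dusp4 (NM_022199) on the minus strand at chr16:61109626-61119981, Dusp5 (NM_133578) on the plus strand at chr1:259754234-259767645 and Dusp6 (NM_053883) on the plus strand at chr7:36893264-36897494. Spry1 (NM_001106427) lies on the plus strand at chr2:124213692-124218334, Spry2 (NM_001012046) on the minus strand at chr15:90009105-90011940 and Spry4 (NM_001106150) on the minus strand at chr18:31532680-31547586. Spred1 (NM_001047089) lies on the plus strand at chr3:103184312-103246353 and Spred2 (NM_001047094) on the plus strand at chr14:100698542-100797717. The reads of a row were counted over its transcript, and no member shared its position with a row of another symbol.

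In the ERK pathway, growth factor receptors activate Ras, and Ras starts the kinase chain Raf, MEK and ERK. Active ERK switches on early genes, and among these are its own inhibitors. Sprouty and Spred proteins act near the top, between the receptor and Raf, while Dusp phosphatases remove the phosphate groups from the MAP kinases themselves. Transcript levels of Dusp6, Spry2 and Spry4 are therefore widely used as a readout of ERK output. Dusp1 is broader: it dephosphorylates p38 and JNK as well as ERK, and it is also a known target of stress signals, cyclic AMP and glucocorticoids. In synovial fibroblasts, MAP kinases are known for driving the production of matrix-degrading enzymes and inflammatory mediators.

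Library depth was 5463316 to 5991889 reads, and levels are in CPM, the depth-scaled unit of the deposited table, in which 3 reads correspond to 0.491 to 0.551 CPM. A list of 10 fibroblast markers summed to 62475 to 87669 CPM, highest in the FBS libraries (80447 and 87669) and lowest in MS- (62475 and 64790). Of the 10, 8 reached 1 CPM in every library, collagen genes and Vim among them, while Dcn and Lum did not. Of 6 lining markers 5 reached 1 CPM in every library, Prg4 (lubricin) and Has2 among them, while Has1 did not. The list summed to 2197 and 2281 CPM in FBS, 1756 and 1782 CPM in MS-, and 1893 and 1950 CPM in MS+, with no overlap between conditions. Of all tested features, 45.8% to 56.7% did not overlap either in a comparison of 2 conditions. Of 10 macrophage markers in the table, 6 had 0 reads in all libraries, including Ptprc and Cd163, while 2, Cd14 and Cd74, reached 1 CPM in every library. The macrophage list summed to 17.9 to 25.8 CPM. Endothelial markers summed to at most 1.47 CPM, lymphocyte markers to at most 0.491 CPM, and red blood cell markers were at 0. Skeletal muscle markers summed to 772 to 1203 CPM, and Acta1 was the only 1 of those 6 at 1 CPM or more in every library. The part of these differences in the results below was not tested. In bulk RNA, fewer expressing cells and less RNA per cell cannot be told apart.

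Dusp6, a cytoplasmic phosphatase selective for ERK, had the largest change among the 8 members tested. It measured 66.3 and 86.7 CPM in FBS, 47.6 and 56.4 CPM in MS-, and 32.8 and 29.9 CPM in MS+. The 3 conditions did not overlap, and the order FBS, MS-, MS+ was the same in the cells of both rats. Group means were 76.5 ± 14.4, 52.0 ± 6.25 and 31.4 ± 2.03 CPM (SD, n = 2 each). From FBS to MS+ it fell by 1.25 on the log2(CPM + 1) scale (SE 0.16, adjusted p by limma 0.0084), and the mean level in FBS was 2.44 times that in MS+. The step from MS- to MS+ measured -0.71 on that scale (SE 0.16, adjusted p by limma 0.144), and the step from FBS to MS- measured -0.54 (SE 0.16, adjusted p by limma 0.118). With the rat as a term in the fit, which removes the constant difference between the 2 donors, the limma adjusted p values of these steps were 0.00239 and 0.00628, and that between MS+ and FBS was 3.28e-06. Without that term, the call between MS+ and FBS was lost when MS+ replicate 1 (adjusted p 0.0585) or MS+ replicate 2 (0.0571) was left out.

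Dusp1, the phosphatase also known as MKP-1, went the other way against FBS. It measured 815 and 744 CPM in FBS, 1090 and 1069 CPM in MS-, and 1285 and 1061 CPM in MS+. Both rat sera lay above FBS, while MS- and MS+ overlapped each other. From FBS to MS+ it rose by 0.58 (SE 0.12, limma adjusted p 0.0341), a ratio of the mean levels of 1.51. This call was lost when any 1 of the 6 libraries was left out (adjusted p 0.0616 to 0.162), and also when no filter on low values was applied (0.0626), although the log2 fold change stayed between 0.45 and 0.72. MS- exceeded FBS by 0.47 (SE 0.12) on the log2 scale, and limma gave an adjusted p of 0.0892 without the rat term and 0.00102 with it. The difference between MS+ and MS- was 0.11 with a 95% confidence interval from -0.18 to 0.41, which does not show that the levels are alike: rat 1 differed by 0.24 and rat 2 by -0.01.

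The promoters of the members whose levels are described here in most detail, Dusp1, Dusp6 and Spry4, are shown with that of Dusp5 for comparison, as RefSeq gives them for assembly GRCr8 (250 bases before and 50 after an annotated start, 5′ to 3′ on the gene's strand). RefSeq starts matched by symbol were found for 8 of the 9 members. Capitals mark matches on either strand to 5 motifs of factors that act downstream of MAP kinases or cyclic AMP: the cyclic AMP element TGACGTCA, its short form TGACG (which lies inside the full element), the AP-1 motif TGANTCA, the Ets motif CCGGAA and the CArG box bound by serum response factor.
Dusp1 (chr10:17184603-17184902, plus strand): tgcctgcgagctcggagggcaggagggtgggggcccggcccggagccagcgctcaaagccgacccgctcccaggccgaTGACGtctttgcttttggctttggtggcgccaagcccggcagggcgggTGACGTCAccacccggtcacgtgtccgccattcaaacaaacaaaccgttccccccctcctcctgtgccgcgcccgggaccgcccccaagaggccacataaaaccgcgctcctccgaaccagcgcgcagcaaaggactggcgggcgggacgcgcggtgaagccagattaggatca
Dusp6 (chr7:35979354-35979653, plus strand): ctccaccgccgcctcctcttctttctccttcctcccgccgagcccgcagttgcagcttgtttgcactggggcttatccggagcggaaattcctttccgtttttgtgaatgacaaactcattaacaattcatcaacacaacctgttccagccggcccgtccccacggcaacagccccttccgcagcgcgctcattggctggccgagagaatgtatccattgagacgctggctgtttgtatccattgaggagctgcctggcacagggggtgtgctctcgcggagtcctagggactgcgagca
Dusp5 (chr1:262543524-262543823, plus strand): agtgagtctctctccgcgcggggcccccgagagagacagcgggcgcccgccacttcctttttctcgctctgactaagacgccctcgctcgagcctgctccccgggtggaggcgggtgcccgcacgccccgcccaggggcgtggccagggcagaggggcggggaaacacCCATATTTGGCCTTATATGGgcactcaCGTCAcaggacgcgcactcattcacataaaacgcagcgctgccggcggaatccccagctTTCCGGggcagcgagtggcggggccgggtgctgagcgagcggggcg
Spry4 (chr18:30702497-30702796, minus strand): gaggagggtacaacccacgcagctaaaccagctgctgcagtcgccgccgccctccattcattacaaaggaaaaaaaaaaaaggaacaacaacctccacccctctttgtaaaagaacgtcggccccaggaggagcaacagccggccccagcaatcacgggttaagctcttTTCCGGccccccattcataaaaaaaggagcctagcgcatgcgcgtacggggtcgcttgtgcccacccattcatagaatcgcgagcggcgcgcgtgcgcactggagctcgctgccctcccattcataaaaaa

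The Dusp1 window held 1 full cyclic AMP element, which 1.83% of all 33469 RefSeq promoter windows of this length hold, and 3 matches to the short form, 2 of them within that element. The short form was found in 21.2% of all windows. The Dusp5 window held 2 CArG boxes side by side, a motif present in 1.64% of windows, beside 1 short form and 1 Ets motif. The Spry4 window held 1 Ets motif, which 5004 of the windows hold, and the Dusp6 window held none of the 5. Among the windows not shown, a Spry2 window held 1 short form and 1 Ets motif, and the Spred2 window held 1 short form. The other Spry2 window and those of Spry1 and Spred1 held none. The AP-1 motif, present in 7.33% of windows, was in none of the windows found for the members. A match describes letters in a short window and is not evidence of binding.

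Dusp5, a nuclear phosphatase selective for ERK, measured 17.4 and 17.9 CPM in FBS, 16.1 and 21.7 CPM in MS-, and 13.7 and 17.1 CPM in MS+. Its MS+ values lay just below both FBS values, and MS- overlapped both other conditions. None of its 3 differences passed: relative to MS-, MS+ differed by -0.27 on the log2 scale (95% interval -0.73 to 0.18), relative to FBS by -0.19 (-0.65 to 0.26), and MS- relative to FBS by 0.08 (-0.38 to 0.54). Dusp4, a nuclear phosphatase related to Dusp1, was near the floor of detection and did not pass the filter, so it was not tested. It had 3 and 3 reads in FBS, 9 and 5 in MS-, and 14 and 5 in MS+. These counts correspond to 0.491 and 0.497 CPM in FBS, 1.65 and 0.904 CPM in MS-, and 2.52 and 0.918 CPM in MS+. The FBS libraries were the lowest, and only rat 1 exceeded 1 CPM.

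**Figure D1:**
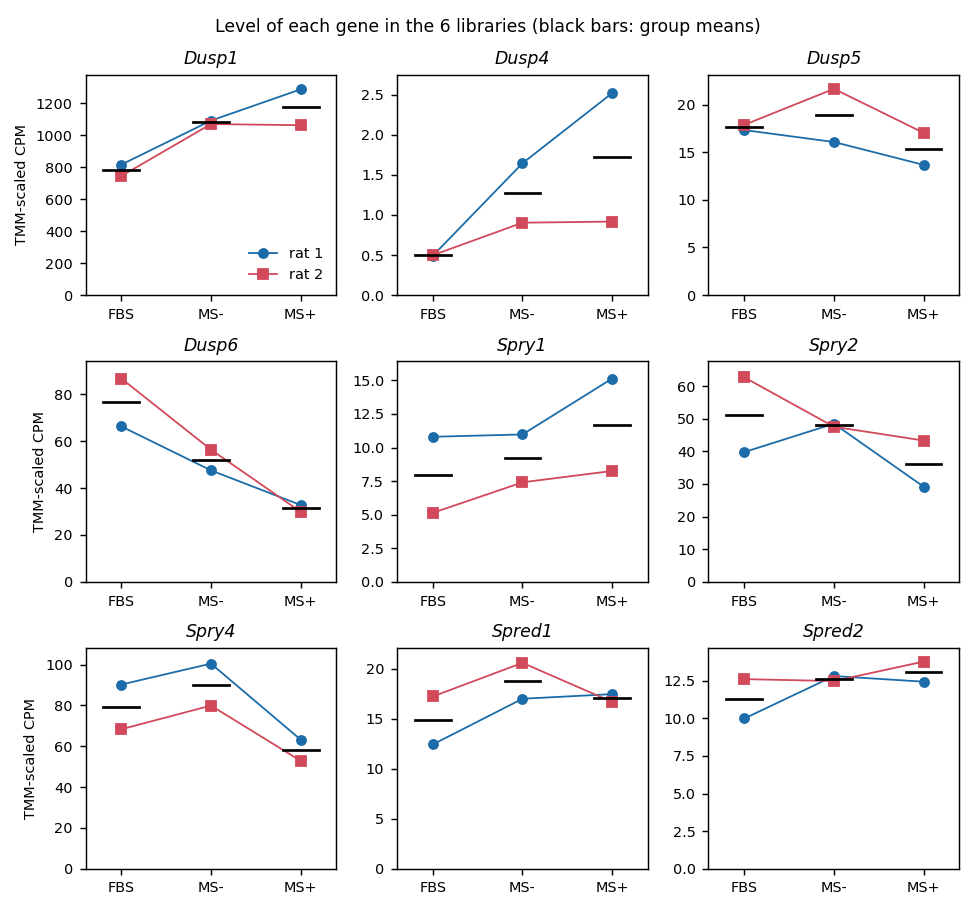
Level of each of the 9 genes in TMM-scaled CPM (vertical axes, from 0) in the FBS, MS- and MS+ conditions; circles are rat 1, squares are rat 2, and black bars are means of 2 libraries. Dusp6 steps down from 76.5 to 52.0 to 31.4 CPM on average, Dusp1 lies above its FBS level in both rat sera, Spry4 is lowest in MS+, and Spry1 is higher in rat 1 in every condition.

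Spry4 restrains Ras activation below growth factor receptors. It measured 90.2 and 68.3 CPM in FBS, 100.4 and 79.9 CPM in MS-, and 63.2 and 52.9 CPM in MS+. Both MS+ libraries lay below all others, while FBS and MS- overlapped. The cells of rat 1 were above those of rat 2 in every condition, by 0.25 to 0.40 on the log2 scale, and the drop from MS- to MS+ was similar in both rats, at -0.66 and -0.59. In the fit over all libraries MS+ differed from MS- by -0.62 (SE 0.18), for which limma gave an adjusted p of 0.208 without the rat term and 0.000985 with it. MS+ differed from FBS by -0.43 (SE 0.18), with adjusted p values from limma of 0.173 and 0.00358 in the same order. MS- differed from FBS by 0.19 (95% interval -0.24 to 0.61), which did not pass in either fit. The pattern thus differed from that of Dusp6, whose MS- level was below FBS in both rats, but the difference between the genes was not tested.

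Spry2, which also acts between receptor and Ras, measured 39.8 and 62.7 CPM in FBS, 48.5 and 47.5 CPM in MS-, and 29.2 and 43.3 CPM in MS+. The MS+ values were below both MS- values, but the wide FBS pair spanned most of the others. Against FBS, MS+ was lower in both rats, by -0.43 and -0.52, and the fitted difference of -0.48 (SE 0.25) had an adjusted p by limma of 0.267 without the rat term and 0.0217 with it. Against MS- the change of -0.42 (SE 0.25) passed in neither fit (limma adjusted p 0.501 and 0.0779), and it was uneven, at -0.71 in rat 1 and -0.13 in rat 2. From FBS to MS- the 2 rats went in opposite directions, 0.28 and -0.39.

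Spry1, the remaining Sprouty member, differed between the donors in every condition. It measured 10.8 and 5.14 CPM in FBS, 11.0 and 7.41 CPM in MS-, and 15.1 and 8.26 CPM in MS+. Rat 1 was above rat 2 by 0.94, 0.51 and 0.80 on the log2 scale in these conditions, and the conditions overlapped. Its largest difference, 0.52 between MS+ and FBS (SE 0.40), had a limma adjusted p of 0.442 without the rat term and 0.0601 with it. Unlike Spry2 and Spry4, its mean was highest in MS+, and in each rat the MS+ value was the highest of the 3.

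The Spred proteins recruit the Ras inactivator neurofibromin to the membrane. Spred1 measured 12.4 and 17.2 CPM in FBS, 17.0 and 20.6 CPM in MS-, and 17.5 and 16.7 CPM in MS+. All pairs of conditions overlapped, and its largest log2 fold change was 0.33 between MS- and FBS (95% interval -0.13 to 0.80). Spred2 measured 9.99 and 12.6 CPM in FBS, 12.8 and 12.5 CPM in MS-, and 12.4 and 13.8 CPM in MS+. Its conditions overlapped as well, with a largest log2 fold change of 0.204 between MS+ and FBS (95% interval -0.21 to 0.62). Neither gene passed in any comparison, with or without the rat term.

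**Figure D2:**
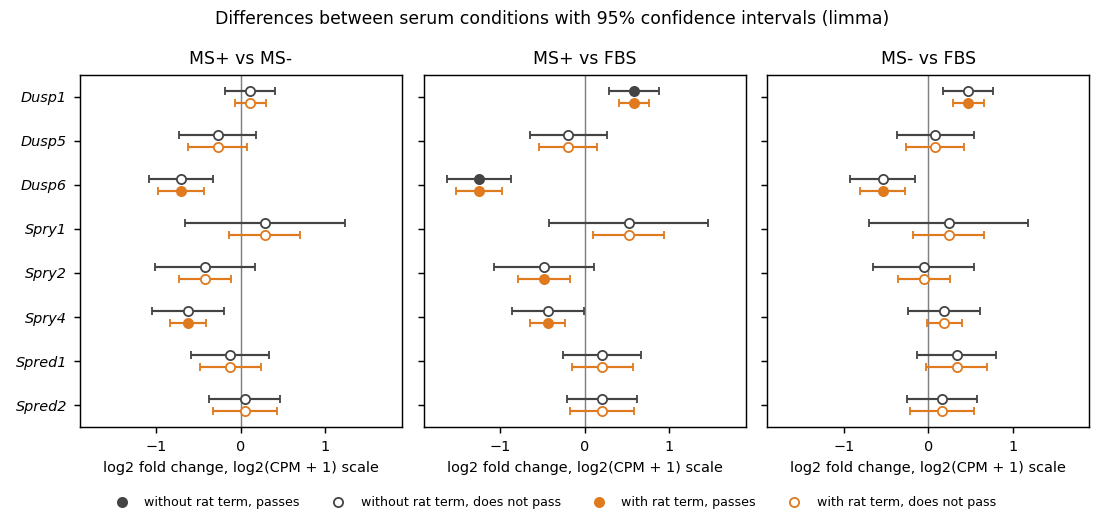
Log2 fold change of the 8 tested members (rows) in the 3 comparisons (panels), with 95% confidence intervals from limma without (grey) and with (orange) the rat as a term; filled points pass a Benjamini-Hochberg adjusted p of 0.05 over all 9820 features. Dusp6 and Spry4 are filled and below 0 between MS+ and MS- only with the rat term, and Dusp1 and Dusp6 lie on opposite sides of 0 against FBS.

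The comparison of MS+ with MS- asks what the serum of stimulated animals changed relative to serum of untreated ones. In the study's account the MS- serum was drawn before any therapy, and the MS+ serum later, during the course of stimulation. On that account stimulation cannot be told apart here from the later time of drawing, with its longer disease and greater age of the animals. Were the MS- serum from healthy rats, as its sample description says, stimulation could not be told apart from arthritis itself either. Of the 8 members tested, 0 passed the adjusted threshold in limma without the rat term, where 0.0204% of all 9820 features passed; edgeR, limma-voom and DESeq2 also passed 0. At an unadjusted p under 0.05 there were 2, Dusp6 and Spry4, beside 14.7% of all features. With the rat term these 2 passed, both lower in MS+, against 4.78% of all features that passed as lower and 10.1% that passed in either direction. No member met the study rule (unadjusted p under 0.05, at least 2-fold and a mean of at least 1 CPM), which 1.24% of features met. The median log2 fold change of the 8 was -0.20, beside -0.0058 over all features, with 3 members higher and 5 lower. The groups did not overlap in 3 members, Dusp6, Spry2 and Spry4, all lower in MS+, while 45.8% of all features did not overlap. The 2 rats went the same way in 5 of 8 members, and in 66.6% of all features.

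**Figure D3:**
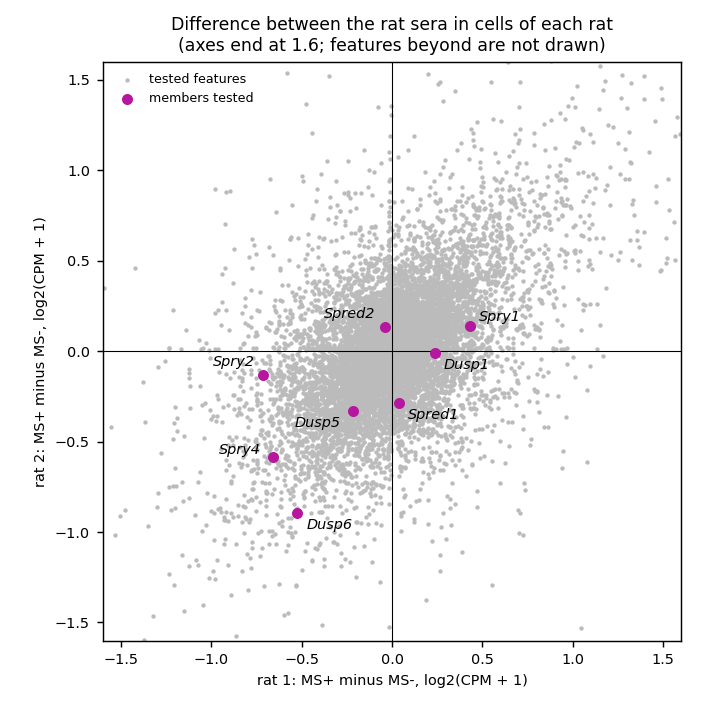
Difference between MS+ and MS- on the log2(CPM + 1) scale in cells of rat 1 (horizontal) and rat 2 (vertical) for all tested features (grey) and the 8 tested members (purple); 32 features beyond 1.6 are not drawn. Dusp6 (-0.52 and -0.89) and Spry4 (-0.66 and -0.59) lie in the lower left part, while Dusp1, Spred1 and Spred2 lie near an axis.

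The comparisons with FBS show what rat serum changed relative to the standard medium. They share the FBS libraries, and the species of the serum cannot be told apart from other properties of the FBS. Nor can it be told apart from the change of serum after the expansion, which only the rat sera brought. Between MS+ and FBS, 2 of 8 members passed the adjusted threshold in limma, Dusp1 higher and Dusp6 lower, beside 9.61% of all features (4.95% higher and 4.66% lower). At an unadjusted p under 0.05 there were 3, beside 27.5%. With the rat term 4 passed, Dusp1 higher and Dusp6, Spry2 and Spry4 lower, beside 28.2% of all features (14.4% higher and 13.9% lower). The groups did not overlap in 4 members, Dusp1, Dusp5, Dusp6 and Spry4, beside 56.7% of all features, and both rats went the same way in 7 members, beside 72.3%. Dusp6 also met the study rule, as did 5.3% of features. The median of the 8 was 0.0056, near that of all features (0.00078), with 4 members on each side. Between MS- and FBS, 0 members passed in limma, where 4.81% of features passed; edgeR and limma-voom also passed 0, and DESeq2 passed 1, Dusp1. At an unadjusted p under 0.05 there were 2, Dusp1 and Dusp6, beside 21.1% of all features. These 2 passed with the rat term, beside 20.5% of all features (10.8% higher and 9.63% lower). They were also the 2 members whose groups did not overlap, beside 51.6% of all features, and both rats went the same way in 5 members, beside 72.8%. The study rule was met by 0 members in this comparison and by 3.62% of features. The median was 0.17, beside 0.014 over all features, with 6 members higher and 2 lower.

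Other genes of the pathway were described by 6 lists with 114 symbols, of which 85 were tested. Between MS+ and MS-, 0 of the 85 passed the adjusted threshold in limma (0.0204% of all features), and 22 had an unadjusted p under 0.05 (14.7% of all features). The same count of 0 was given by edgeR and limma-voom, while DESeq2 passed 4 of the 85 and 123 of all 9820 features. Between MS+ and FBS 10 passed (4 higher, 6 lower), which is 11.8% beside 9.61% of all features, and between MS- and FBS 5 passed (2 higher, 3 lower), or 5.88% beside 4.81%. With the rat term 18 passed for MS+ against MS-, of which 5 were higher and 13 lower, then 29 for MS+ against FBS (12 and 17) and 31 for MS- against FBS (17 and 14), beside 10.1%, 28.2% and 20.5% of all features. These counts depended on single libraries. The count of 10 became 0 without MS+ replicate 1, 3 without MS+ replicate 2 or FBS replicate 1, and 5 without FBS replicate 2. The count of 5 became 0 without FBS replicate 1 or either MS- library, 1 without FBS replicate 2, and 3 without either MS+ library.

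The list of ERK-induced transcription targets, early and delayed genes that ERK is known to switch on, was the one with the lowest median between MS+ and MS-. Of its 19 tested genes, 5 were higher and 14 lower, with a median of -0.32. Without the rat term 0 passed there in limma (0.0204% of all features), edgeR and limma-voom, and DESeq2 passed 3, all lower (123 of all 9820 features). With the rat term, 1 passed as higher and 10 as lower, where 5.27% and 4.78% of all features passed as higher and lower. In that fit 0 passed as higher and 7 as lower between MS+ and FBS, beside 14.4% and 13.9%. Between MS- and FBS 4 passed as higher and 4 as lower, beside 10.8% and 9.63%. The list was chosen with earlier results of these data known, so these counts are a description and not a test of the list. Etv5, an Ets factor transcribed in response to FGF and ERK signals, measured 106 ± 13.1 CPM in FBS, 77.7 ± 1.43 CPM in MS- and 46.9 ± 3.19 CPM in MS+ (SD, n = 2 each). Its order of conditions was that of Dusp6. From FBS to MS+ it fell by 1.15 (SE 0.12, adjusted p by limma 0.00526), and from MS- to MS+ the change was -0.72 (SE 0.12, adjusted p by limma 0.111 without and 0.000514 with the rat term). Ier2, an immediate early gene, stood at 89.0 ± 7.33 CPM in FBS, 132 ± 13.2 CPM in MS- and 59.7 ± 2.84 CPM in MS+. It rose between FBS and MS- by 0.56 (limma adjusted p 0.0445) and fell between FBS and MS+ by 0.57 (limma adjusted p 0.0300). Egr3, another immediate early factor, rose by 1.31 from FBS to MS- (limma adjusted p 0.0296) and was at 4.81 ± 1.09 CPM in MS+, beside 11.0 ± 0.807 CPM in MS-. Without the filter on low values, 0 genes of the list passed between MS- and FBS in limma, so the calls on Ier2 and Egr3 there were lost. In this list the direction of MS- against FBS thus varied between genes, with 11 higher and 8 lower.

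In the kinase chain itself, of 22 tested genes of Ras, Raf, MEK, ERK and their scaffolds, 1 passed as higher and 2 as lower between MS+ and FBS, beside 4.95% and 4.66% of all features. Between MS- and FBS 2 passed as lower, beside 4.81% of all features in either direction. Between MS+ and MS- 0 passed, with 3 at an unadjusted p under 0.05, beside 0.0204% and 14.7% of all features. With the rat term 5 passed as higher and 2 as lower in each comparison with FBS, and 1 as higher between MS+ and MS-. In that fit 28.2% (MS+ against FBS), 20.5% (MS- against FBS) and 10.1% (MS+ against MS-) of all features passed in either direction. Ksr1, a scaffold that brings Raf and MEK together, rose from 11.6 ± 1.88 CPM in FBS to 22.9 ± 1.59 CPM in MS+ (log2 fold change 0.93, limma adjusted p 0.0212). Mras, a Ras relative, fell from 95.8 ± 5.54 to 55.3 ± 8.95 CPM (-0.79, limma adjusted p 0.0181). Rps6ka4, the kinase MSK2 downstream of ERK and p38, fell from 90.0 ± 0.346 to 49.6 ± 1.29 CPM (-0.85, limma adjusted p 0.0060). Mras and Rps6ka4 also fell between MS- and FBS, to 50.8 ± 1.76 and 61.6 ± 0.263 CPM. The list's median log2 difference was 0.044 for MS+ against MS-, 0.018 for MS+ against FBS and 0.092 for MS- against FBS.

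Upstream of Ras, 0 of 12 receptor tyrosine kinases and 0 of 13 adaptors and Ras activators passed in limma in any comparison without the rat term, where 0.0204% (MS+ against MS-), 9.61% (MS+ against FBS) and 4.81% (MS- against FBS) of all features passed. At an unadjusted p under 0.05 there were 1, 3 and 2 receptors and 2, 1 and 2 adaptors in that order, beside 14.7%, 27.5% and 21.1% of all features. With the rat term the receptors numbered 1 higher between MS+ and MS-, 2 higher and 3 lower between MS+ and FBS, and 3 lower between MS- and FBS. The adaptors then numbered 1 lower, 1 higher and 3 higher. In the same order, 10.1%, 28.2% and 20.5% of all features passed with the rat term in either direction. Fgfr1, a fibroblast growth factor receptor, was closest, at 83.4 ± 10.3 CPM in FBS, 66.1 ± 2.14 CPM in MS- and 56.9 ± 7.30 CPM in MS+ (log2 fold change between MS+ and FBS -0.54, limma adjusted p 0.0516 without and 0.000928 with the rat term). The receptor higher in MS+ than in MS- with the rat term was Pdgfra, a receptor for platelet-derived growth factor, at 152 ± 40.4 CPM in FBS, 149.6 ± 25.9 CPM in MS- and 192 ± 50.6 CPM in MS+. Named after its values were seen, it had a log2 difference of 0.34 between the rat sera (limma adjusted p 0.573 without and 0.0207 with the rat term). The adaptor Gab1 stood at 44.4 ± 7.21 CPM in MS- and 31.9 ± 0.997 CPM in MS+, and its difference of -0.46 passed only with the rat term (limma adjusted p 0.268 and 0.0356). The call on Fgfr1 lay at the threshold: edgeR and DESeq2 passed it between MS+ and FBS, and limma-voom did not.

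Other inhibitors of the pathway went both ways between MS+ and FBS, with 2 of 13 higher and 2 lower, beside 4.95% and 4.66% of all features. Between MS- and FBS 1 passed, Socs3 as lower, where 4.81% of all features passed in either direction. Between MS+ and MS- 0 passed, with 5 at an unadjusted p under 0.05, beside 0.0204% and 14.7% of all features. With the rat term 2 passed as higher and 2 as lower between MS+ and MS- (10.1% of all features in either direction). Higher and lower genes then numbered 3 and 4 between MS+ and FBS (28.2%), and 4 and 3 between MS- and FBS (20.5%). Errfi1 (Mig-6), an inhibitor of the EGF receptor, rose from 36.9 ± 5.23 CPM in FBS to 89.1 ± 16.7 CPM in MS+ (log2 fold change 1.24, limma adjusted p 0.0116), with 57.2 ± 9.16 CPM in MS-. Cblb, a ubiquitin ligase that acts on activated receptors, rose from 55.0 ± 11.6 to 115 ± 11.0 CPM (1.06, limma adjusted p 0.0114). Rasa3, a Ras GTPase-activating protein, fell from 43.8 ± 1.93 to 22.0 ± 0.484 CPM (-0.96, limma adjusted p 0.00763), and it was also lower in MS+ than in MS- with the rat term (-0.75, limma adjusted p 0.00134). Socs3, an inhibitor of cytokine signals, fell from 6.43 ± 1.46 to 1.55 ± 0.149 CPM (-1.53, limma adjusted p 0.0174). Of 6 other dual-specificity phosphatases 1 passed between MS+ and FBS, beside 9.61% of all features. Between MS+ and MS- and between MS- and FBS 0 passed, beside 0.0204% and 4.81%. With the rat term 0 passed between MS+ and MS- (10.1% of all features). Higher and lower phosphatases then numbered 1 and 1 between MS+ and FBS (28.2%), and 1 and 2 between MS- and FBS (20.5%). Dusp3 rose from 176 ± 3.65 to 249 ± 30.0 CPM between FBS and MS+ (0.50, limma adjusted p 0.0341), and it stood at 239 ± 0.602 CPM in MS-. Dusp8, which prefers JNK and p38, was at 43.4 ± 3.07 CPM in FBS, 30.8 ± 1.16 CPM in MS- and 31.0 ± 5.38 CPM in MS+, and both differences from FBS passed only with the rat term (limma adjusted p 0.0145 and 0.0199).

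**Figure D4:**
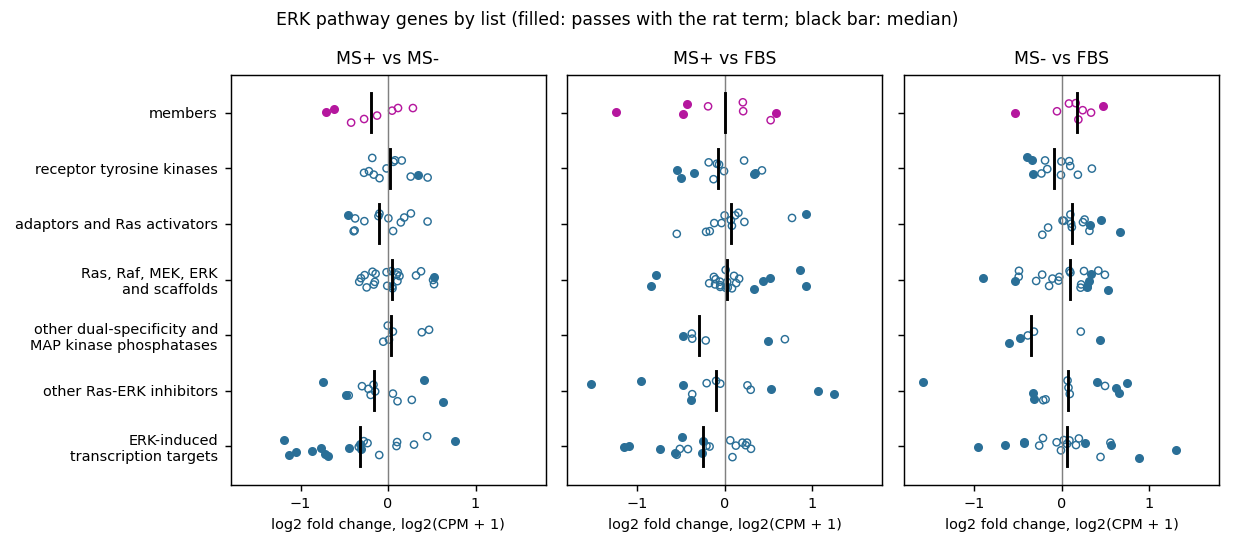
Log2 fold change (horizontal) of the tested members and of the tested genes of 6 ERK pathway lists (rows) in the 3 comparisons (panels); each point is a gene, filled where it passes the adjusted threshold with the rat term, and black bars are medians. The ERK-induced targets have a median of -0.32 between MS+ and MS-, with 10 filled points below 0 and 1 above, while the list of Ras, Raf, MEK and ERK genes is centred at 0.044.

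Likeness of pattern was described by the Pearson r across the 6 libraries on the log2(CPM + 1) scale, without a test, since all libraries come from the same 2 donors and 3 sera. Within the 9 members, r ranged from -0.90 (Spry1 with Spry2) to 0.89 (Dusp1 with Dusp4), and Dusp1 with Dusp6 had -0.85. Dusp4 was near the floor of detection, so the r of its pair rests on few reads. Spry1 was higher in rat 1 in every condition and Spry2 was lower in rat 1 in FBS and MS+, so their r includes the donor difference. Among 1269 other features with a mean of at least 5 CPM and a range of at least 1, the closest to Dusp1 were Slc16a14 (0.99), LOC501194 (0.98) and Abhd4 (0.98), and 106 features exceeded 0.9. The closest to Spry4 were Slc38a6 (0.98), the sphingosine phosphate receptor gene S1pr1 (0.97) and Fhod1 (0.96), and 17 exceeded 0.9. The closest to Spred1 were Prrx1 (0.99), a transcription factor of mesenchymal cells, LOC100365935 (0.98) and Ash1l (0.98), and 45 exceeded 0.9.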

How the data were processed

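Poly(A)-selected RNA was sequenced by a company on an Illumina instrument. The authors aligned filtered reads to the rat genome rn4 with bowtie2 (2.1.0 in the submitters' processing notes) and counted them per transcript with HTSeq (0.5.4p3, intersection-nonempty mode). The authors deposited these counts as a TMM-scaled signal in CPM, which is the unit used here. Strand use was not stated. No member overlapped a row of another symbol, so reads dropped or shared at overlaps do not bear on them. Division by the smallest value above 0 in a library gave whole reads within a tolerance of 1e-06 reads for 100% of values. Depth limits the precision of low genes such as Dusp4, and, as no molecular identifiers are described, floors cover counting error only.

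Features were kept if both libraries of at least 1 condition had 1 CPM or more (9820 features). The test was limma 3.58.1 under R 4.3.3, two-sided with trended eBayes, applied to log2(CPM + 1), a scale that understates the change of low genes, with condition as the only term. Adjusted p values are Benjamini-Hochberg values over all 9820 features. The study stated limma-voom for counts and applied its thresholds to that output; here a scaled unit was deposited, so limma on log2 values was the main test and limma-voom, edgeR 4.0.16 and DESeq2 1.42.0 on recovered reads were alternatives. Other alternatives were another pseudocount, no filter, other scalings and leaving out each library.

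Libraries with the same replicate number were paired: each condition's labels carry the same pair of rat names. The difference between the rats correlated across features by 0.59, 0.49 and 0.62 between the conditions. A fit with the rat as a replicate block (the rat term) is given where it changes a call. The number of serum donors was not stated, so p values measure the spread between these libraries. The 2 libraries of a condition were not copies (chi-square per degree of freedom 13.6 to 15.1).

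Of the pathway lists, 10 of 114 symbols, Braf and Cbl among them, had no row under that symbol in the deposited table, and 19 fell under the filter. All members were named. From each list at most 4 genes per comparison with the smallest unadjusted p were named, and for the member with the most reads in each family the 3 features most alike. The members and lists were chosen with earlier results of these data known. Coordinates of promoters are those of GRCr8; accessions of 8 of the 9 members matched that RefSeq table. Scripts were tested on simulated data. 1 gene of the kinase list is counted but not reported here.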

Additional observations from a re-analysis of the deposited data

How the results depend on the processing

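With the replicate block, in limma and in edgeR alike, the members past the adjusted threshold numbered 2 in place of 0 between MS+ and MS- (Dusp6 and Spry4), 4 in place of 2 between MS+ and FBS, and 2 in place of 0 between MS- and FBS; DESeq2 gave 1 in the last. Without the filter on low values the count between MS+ and FBS was 1. With 1 library left out it was 0 to 1 between MS+ and FBS, 0 in both other comparisons. It was 0 without either MS+ library and 1 without any other. The counts of members past the study rule did not move under any alternative. Over all features, the block raised the adjusted counts from 2, 944 and 472 to 987, 2773 and 2011, and edgeR with the block to 995, 2851 and 2066, while no filter gave 0, 586 and 255 and DESeq2 gave 123, 822 and 539. With 1 library left out the counts were 0 between MS+ and MS-, 25 to 602 between MS+ and FBS and 105 to 280 between MS- and FBS. The study rule, which called 122 features between MS+ and MS-, called 230 with edgeR, 213 with limma-voom, 215 with a pseudocount of 0.1, 284 with edgeR and the block and 206 without MS+ replicate 1; for MS- against FBS edgeR with the block gave 534 in place of 355.

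Of 360 single values (24 pairs of member and comparison under 15 alternatives), 328 kept direction and side of the threshold and 10 changed sign, all with 1 library left out and all for differences that had not passed. Their values with 1 library left out ranged, for MS+ against MS-, from -0.024 to 0.25 for Dusp1, -0.12 to 0.68 for Spry1, -0.26 to 0.0057 for Spred1 and -0.022 to 0.11 for Spred2. For MS+ against FBS the range was -0.013 to 0.43 for Spred1. For MS- against FBS it was -0.12 to 0.28 for Dusp5, -0.23 to 0.71 for Spry1, -0.38 to 0.27 for Spry2 and -0.0097 to 0.39 for Spry4. With DESeq2 size factors or library totals no adjusted call of a member changed. In fits that leave out 1 library, the lone library of that condition is assumed to vary like the others.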
